A study of Mus musculus with 14 samples.

Results

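miR-223 is the microRNA (miRNA) for which neutrophils are best known, and both strands of its hairpin, miR-223-3p (mmu-miR-223-3p) and miR-223-5p (mmu-miR-223-5p), were measured in vesicles released by mouse neutrophils. They are 2 of the 1695 mature miRNA names in the count table, chosen by name and not by any value. Small extracellular vesicles, membrane particles that cells shed, were isolated with a commercial kit and came from Ly6G-positive cells (Ly6G is a surface protein of mouse neutrophils) that were taken from bone marrow, the donors being female BALB/c mice of wild-type genotype. The cells were kept for 48 h either with DMSO, the solvent (7 libraries), or with 27-hydroxycholesterol (27HC) at 10 µM, an oxidised product of cholesterol (7 libraries). The labels do not say whether the libraries came from separate mice, so p-values measure only the spread between these libraries, which may be technical. The series concerns what such vesicles do to breast cancer cells, and the comparison asks whether 27HC alters their miR-223 content.

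A miRNA hairpin is cut into a duplex, and as a rule one strand, the guide, is kept in an Argonaute protein while the other, the passenger, is mostly degraded. The ratio of the arms is therefore a value apart from how much hairpin is made. Measured in vesicle RNA, it need not equal strand use in the cell, and no cell RNA is among these libraries. The Mir223 gene is switched on by myeloid transcription factors as granulocytes mature, and the 3p strand is the usual guide. It represses, among others, Nlrp3, which codes for a sensor of the inflammasome, and Mef2c, a transcription factor that promotes progenitor growth. miR-223 is also among the miRNAs that leave myeloid cells in vesicles and enter other cells.

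The RefSeq sequences (build GRCm38.p6) show how different the strands are. Each mature strand is printed 5′ to 3′ with its seed, bases 2 to 8, in capitals.
miR-223-3p: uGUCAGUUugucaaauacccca
miR-223-5p: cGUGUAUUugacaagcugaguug
The seeds differ, and for neither strand did another name of the table with a RefSeq sequence have the same seed (1431 of the 1695 names had one). miR-344f-5p alone matched bases 2 to 7 of miR-223-3p, and it had 1 count in all DMSO libraries and 9 in all 27HC libraries. In the hairpin the capitals mark the arms, the 5p first.
Mir223 hairpin: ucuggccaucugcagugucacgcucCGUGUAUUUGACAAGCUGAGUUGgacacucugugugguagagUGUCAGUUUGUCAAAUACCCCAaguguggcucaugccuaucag
The hairpin of 110 bases lies on the plus strand at chrX:96242817-96242926 of GRCm38.p6. In the GENCODE M21 annotation that place is inside exon 3 of transcript F630028O10Rik-201 and exon 2 of F630028O10Rik-202, a non-coding gene on the same strand. The arms are 23 bases (5p) and 22 bases (3p) long and lie 19 bases apart. In the lowest-energy fold, 15 bases of the 5p arm pair with the 3p arm. Both names belong to this 1 hairpin. Which place in the genome the counted reads came from could not be checked here.

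Libraries held 112914 to 871189 counts. Values are also given for the libraries numbered 1 to 4 and those numbered 5 to 7, a split taken from earlier results of these data. Each of these sets holds both treatments, and the labels do not say what the numbers mark. Depth ran from 229324 to 871189 counts in replicates 1 to 4 and from 112914 to 252014 in replicates 5 to 7. DMSO replicate 7 had counts for 1091 names, beside 635 to 865 in the other libraries. The part of depth and of names detected in the results below was not tested. Markers of other cells were low: the erythroid list (miR-451a, miR-144 and miR-486) summed to 0.106% to 0.204% of counts in DMSO and 0.14% to 0.221% in 27HC libraries. miR-486a-5p and miR-486b-5p had the same counts (1597 in DMSO and 1398 in 27HC libraries), and that sum includes both names. The largest of these lists, the hepatocyte one (miR-122-5p, miR-192-5p and miR-194-5p), reached 0.612% in DMSO replicate 7 and 0.446% at most with 27HC, and none of its members was called. The lists cover erythroid, lymphoid, endothelial, stromal, hepatocyte, epithelial and muscle cells. Tested, having passed the filter on low counts, were 2 of 5 erythroid, 2 of 5 stromal and 3 of 6 epithelial members. In the other lists all members were tested. Of those tested only miR-150-5p, a lymphoid marker, was called, lower with 27HC by 0.97 on a log2 scale (edgeR adjusted p 0.0134). Over all tested names, 30 of 239 (12.6%) were called. The other members of the lymphoid list were not called, miR-150-3p at 1.22 (edgeR adjusted p 0.103) and miR-181c-5p at 0.076, which was also the median of the list. No listed marker was at 0. The lists hold miRNAs only, so the sort on Ly6G itself could not be checked here. The part of these markers in the results below was not tested.

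miR-223-3p had rank 2 by abundance in 13 libraries and rank 3 in DMSO replicate 7. miR-16-5p was above it in all 14, and miR-423-5p in DMSO replicate 7 as well. As a percent of all counts in its library, miR-223-3p ranged in DMSO from 8.77% through a median of 15.4% to 16.2%, and in 27HC from 10.8% through 11.8% to 12.2%. Its means were 13.99% ± 2.72 and 11.7% ± 0.536 (SD, n = 7). These percents carry little counting error, since the 95% exact binomial interval of the shallowest library, DMSO replicate 5, ran from 13.4% to 13.8% (counting error only).

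miR-223-5p was also well measured for a minor strand, at ranks 46 to 57 in DMSO and 45 to 52 in 27HC libraries, on at least 233 counts a library. Its share of counts in DMSO went from 0.141% through a median of 0.166% to 0.221%, and in 27HC from 0.176% through 0.194% to 0.206%. Means were 0.175% ± 0.0303 and 0.191% ± 0.0112 (SD, n = 7). The order of the mean shares around it was miR-103-3p, miR-142a-5p, miR-223-5p, miR-423-3p and let-7f-5p. miR-103-3p had more counts than miR-223-5p in 7 of the 14 libraries, miR-142a-5p in 6, miR-423-3p in 8 and let-7f-5p in 6, so none of them was always above or always below it.

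**Figure D1:**
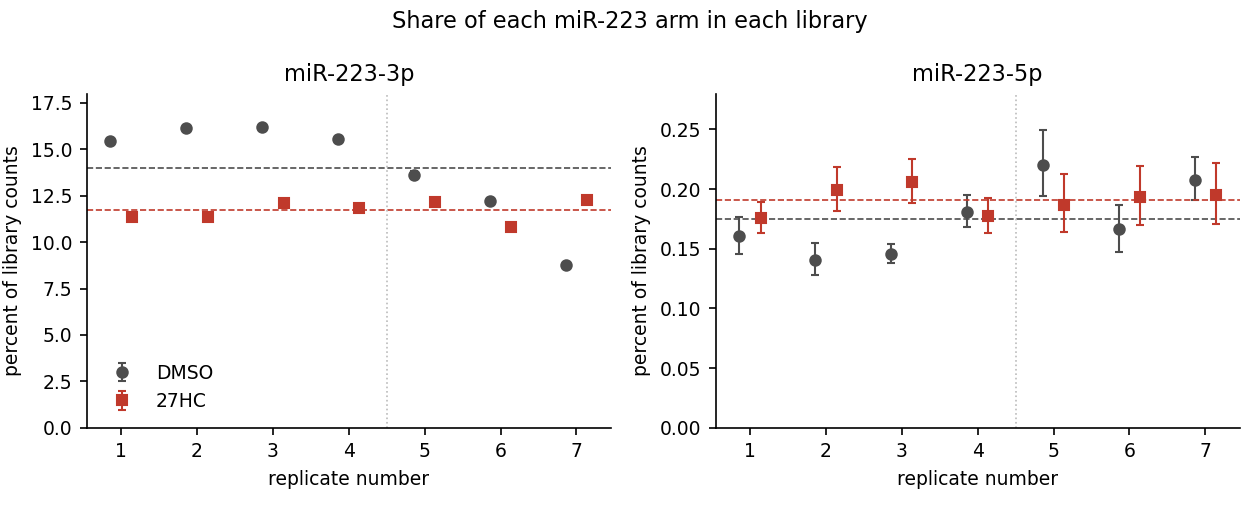
Percent of library counts taken by miR-223-3p (left) and miR-223-5p (right) in each library, by replicate number. Circles are DMSO and squares 27HC, bars are 95% exact binomial intervals, dashed lines are group means, and the dotted line parts replicates 1 to 4 from 5 to 7. DMSO replicates 1 to 4 hold the 4 highest shares of miR-223-3p, and DMSO replicate 7 the lowest, 8.77%.

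Across all libraries neither arm was called with 27HC. The shares describe vesicle RNA as a whole, in which a change in the number of vesicles of a kind and a change in the content of each cannot be told apart. In edgeR's quasi-likelihood test with Benjamini-Hochberg adjustment, the background was 30 of 239 tested names called (12.6%), at an adjusted p under 0.05. miR-223-3p went from 142783 ± 40458 to 119314 ± 11586 TMM-scaled CPM, counts relative to library size (SD, n = 7). Its log2 fold change was −0.26, with an SE of 0.17 and an edgeR adjusted p of 0.406. For miR-223-5p the mean CPM was 1734 ± 214.7 without and 1947.1 ± 242 with 27HC (SD, n = 7), and the log2 fold change 0.17, with an SE of 0.10 and an edgeR adjusted p of 0.388. The arms thus pointed in opposite directions, and the CPM ranges of the groups overlapped for both. The median log2 fold change over the tested names was 0.010.

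The replicates with DMSO were not alike in the 3p strand. In replicates 1 to 4, miR-223-3p took 15.4%, 16.2%, 16.2% and 15.5% of counts with DMSO and 11.4%, 11.4%, 12.1% and 11.8% with 27HC. The groups did not overlap there. The same held, with 27HC lower, for 28 of the 239 names (11.7%) in these replicates, for 37 (15.5%) in replicates 5 to 7 and for 9 (3.77%) over all libraries. In replicates 5 to 7 the percents were 13.6, 12.2 and 8.77 with DMSO and 12.2, 10.8 and 12.2 with 27HC, and they overlapped. Libraries with 27HC therefore held nearly the same share of miR-223-3p in both sets, 11.7% ± 0.379 (SD, n = 4) and 11.7% ± 0.80 (SD, n = 3), while the DMSO libraries did not.

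Fitted alone, replicates 1 to 4 gave a log2 fold change of −0.43 for miR-223-3p, which was called (edgeR adjusted p 0.0129, SE 0.10), in a set where 42 of 242 names (17.4%) were called. Replicates 5 to 7 alone gave 0.15 (SE 0.23, edgeR adjusted p 0.829), in a set where 12 of 198 names (6.06%) were called. The difference between these effects was 0.64 (SE 0.22), with an edgeR unadjusted p of 0.0118 and an adjusted p of 0.267, and edgeR called 0 of 239 names (0%) in that test, with 24 at an unadjusted p under 0.05. For miR-223-5p the values were 0.29 (edgeR adjusted p 0.195) in replicates 1 to 4 and 0.098 (edgeR adjusted p 0.826) in replicates 5 to 7. Its difference between the sets was −0.13 (SE 0.21, edgeR adjusted p 0.850).

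**Figure D2:**
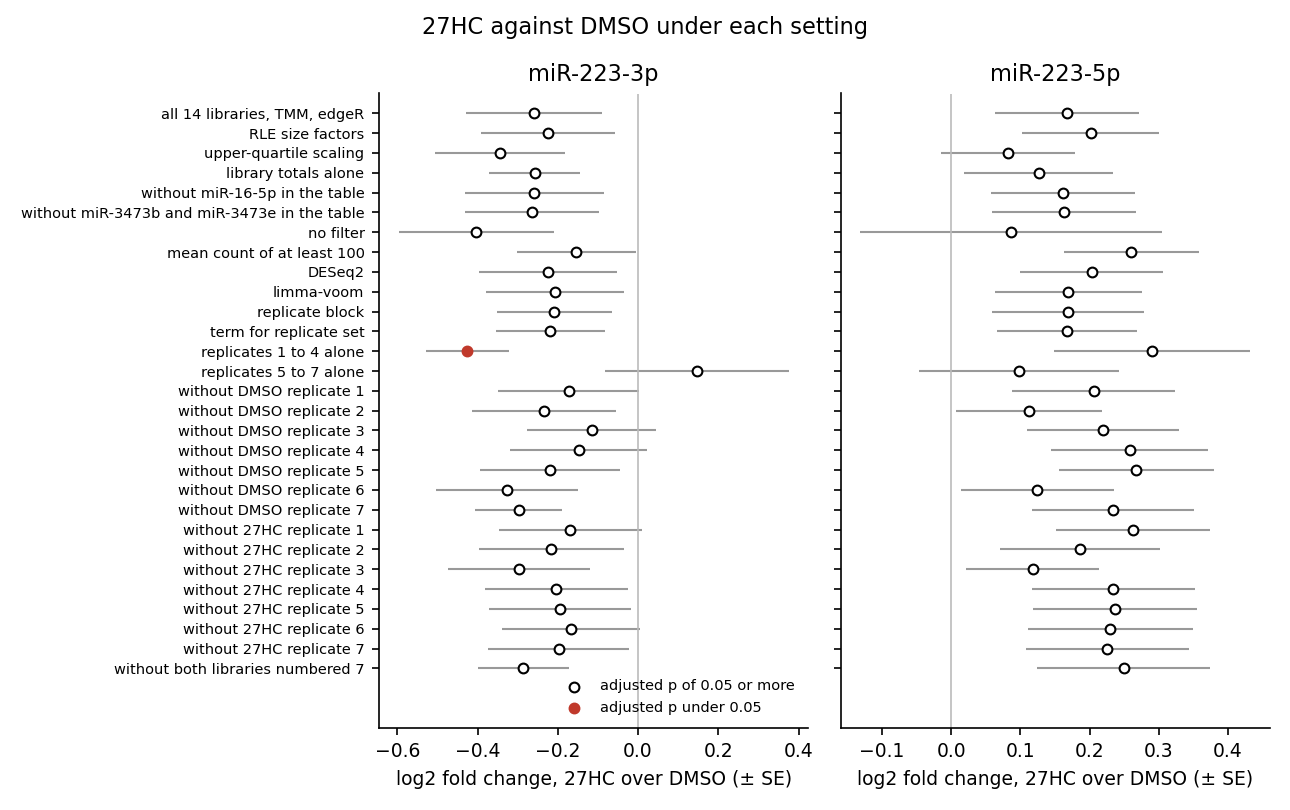
Log2 fold change of each arm, 27HC over DMSO, with its SE, in the fit of all libraries and in each other setting tried. Filled points have an adjusted p under 0.05. miR-223-3p is on the negative side except in replicates 5 to 7 alone (0.15) and is called in replicates 1 to 4 alone (−0.43), and miR-223-5p is on the positive side in each setting shown.

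Taking both arms together, the hairpin held 14.2% ± 2.70 of counts in DMSO and 11.9% ± 0.538 in 27HC libraries (SD, n = 7). The difference of −2.27 percentage points had an exact two-sided permutation p of 0.0478, which became 0.0956 after adjustment over the 6 single-value tests. Within replicates 1 to 4 the difference was −4.13 points, from 15.98% ± 0.384 to 11.9% ± 0.386 (SD, n = 4), with an exact permutation p of 0.0286, the smallest that 4 against 4 allows. Replicates 5 to 7 gave 0.206 points, with an exact permutation p of 0.900 against a smallest possible 0.1. The effects in the 2 sets differed by −4.33 points (exact p 0.0139 from permuting the set labels within each treatment, 0.0388 adjusted over 5 such tests). Without both libraries numbered 7 that difference was −2.70 points (exact p 0.0489). The split was known from earlier results of these data, and the tests between the sets were added after seeing them. All p-values for differences between the sets are thus descriptions and not independent support. The permutations also treat libraries of the 2 sets as alike within each treatment.

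The ratio of the arms moved in the same libraries. miR-223-3p outnumbered miR-223-5p by 42.2 to 114.9 times in DMSO libraries and by 55.9 to 66.6 times in 27HC libraries. In DMSO replicates 1 to 4 the ratio of counts was 96.3, 114.9, 110.9 and 85.8. In 27HC replicates 1 to 4 it was 64.6, 57.0, 58.9 and 66.6. Each of the 4 libraries treated with 27HC was thus below every DMSO library of this set. In DMSO replicates 5 to 7 the ratio was 61.7, 73.6 and 42.2, and in 27HC replicates 5 to 7 it was 65.1, 55.9 and 62.7, so that the groups overlapped there.

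As a share of both arms in vesicle RNA, the 5p strand made up 0.863% to 1.15% of miR-223 counts in DMSO replicates 1 to 4 and 1.48% to 1.72% in 27HC replicates 1 to 4. Among these libraries the highest upper bound of the 95% exact binomial intervals was 1.24% with DMSO, and the lowest lower bound was 1.36% with 27HC. The intervals cover counting error only, not the spread between libraries, and would be too narrow if counts include duplicate reads. DMSO replicate 7 had the largest 5p share of all 14 libraries, 2.32% (interval 2.12% to 2.52%). That library also had the lowest percent of miR-16-5p, 32.2%, and the highest of miR-423-5p, 9.72%, and whether these go together with its arm ratio was not tested.

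On the log2 scale, with 0.5 added to each count, the ratio of 3p to 5p was 6.31 ± 0.514 in DMSO and 5.94 ± 0.101 in 27HC libraries (SD, n = 7). The groups differed by −0.37, less than the SD among DMSO replicates (exact permutation p 0.0828, adjusted 0.124), although all 7 of the 27HC values were below the DMSO mean. Leaving out DMSO replicate 7 gave −0.53 (exact permutation p 0.00291), and leaving out both libraries numbered 7 gave −0.53 (exact permutation p 0.00866). Within replicates 1 to 4 the ratio went from 6.66 ± 0.194 to 5.95 ± 0.107 (SD, n = 4), a difference of −0.72 (exact permutation p 0.0286, the smallest possible). Within replicates 5 to 7 it went from 5.85 ± 0.410 to 5.93 ± 0.115 (SD, n = 3), a difference of 0.084 (exact permutation p 0.8). The effects in the sets differed by −0.80 (exact p 0.0286, adjusted 0.0476), and by −0.56 without both libraries numbered 7 (exact p 0.0800).

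**Figure D3:**
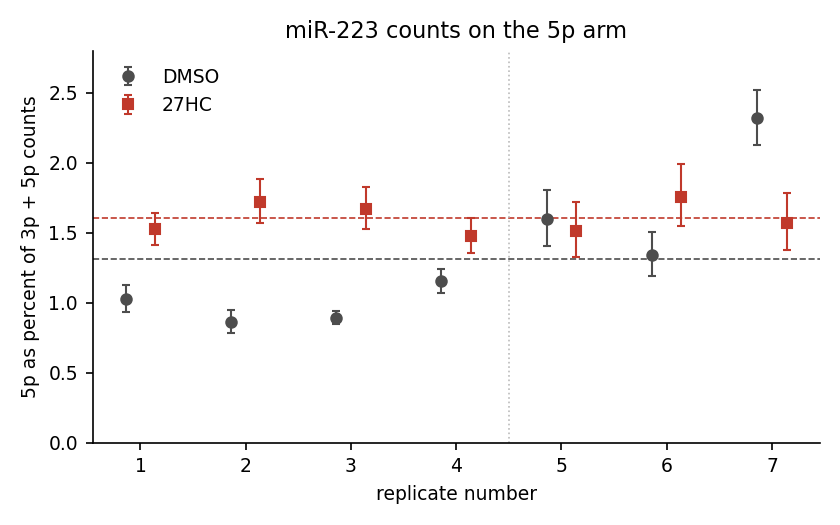
Counts of miR-223-5p as a percent of all miR-223 counts in each library, by replicate number. Bars are 95% exact binomial intervals and dashed lines are group means. The 27HC libraries stay between 1.48% and 1.76%, while DMSO runs from 0.863% to 2.32%.

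Other hairpins give the scale for this. Both arms passed the filter on low counts for 33 hairpins, of which miR-486a and miR-486b share their 5p counts. The median log2 ratio of the more to the less abundant arm was 2.20, and miR-223, at 6.13, had rank 3 by that ratio, after miR-93 and miR-322. Over all libraries, 3 of the 33 arm ratios (9.09%) were called by the exact permutation test adjusted over hairpins. These were miR-149, miR-142a and miR-129b, chosen for mention once their values were known. The miR-223 arm ratio was not called, with an adjusted p of 0.312. In replicates 1 to 4, 7 of the 33 (21.2%) had groups that did not overlap, and in 5 of the 33 (15.2%) the more abundant arm was relatively lower with 27HC. In replicates 5 to 7 it was 6 of the 33 (18.2%) in either direction, and over all libraries 2 (6.06%). These 5 were miR-223, miR-142a, miR-149, miR-150 and miR-129b. The arms of miR-129b were nearly equal, with mean shares of 0.0439% (3p) and 0.0420% (5p) and a mean log2 ratio of −0.22. Which of its arms is the more abundant thus depends on the measure. miR-223 had the smallest fall of the 5, and the other 4 also did not overlap in replicates 5 to 7.

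**Figure D4:**
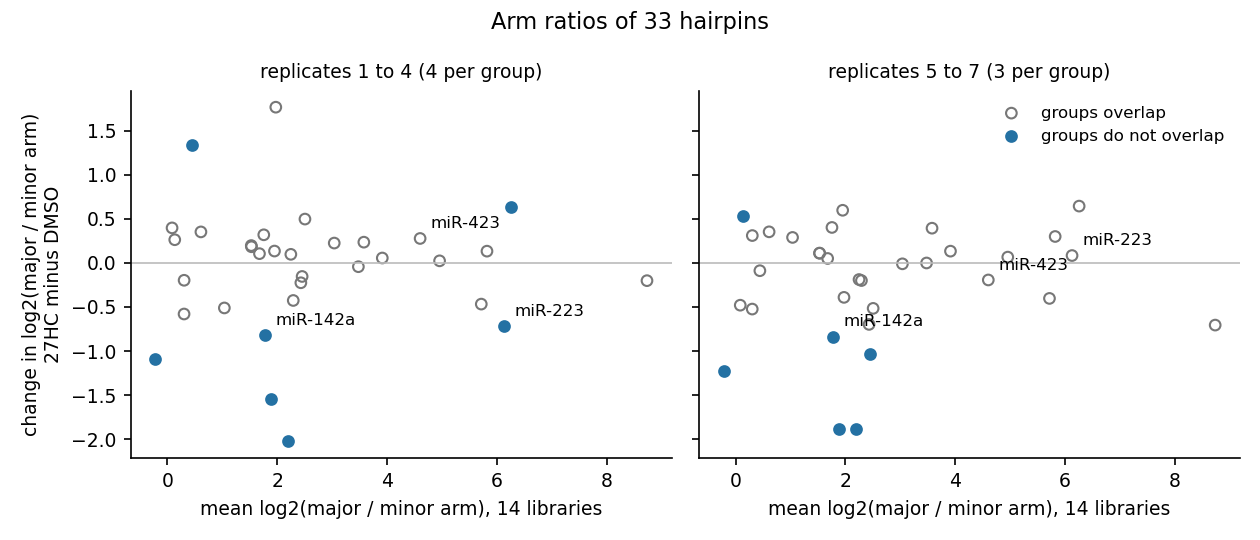
Change in the log2 ratio of the more to the less abundant arm, 27HC minus DMSO, against the mean ratio over 14 libraries, for 33 hairpins. Left, replicates 1 to 4, and right, replicates 5 to 7. Filled points are hairpins whose groups do not overlap: miR-223 is one at −0.72 on the left and is not at 0.084 on the right, whereas miR-142a is one in both panels.

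The first base of a strand is one of the features that Argonaute proteins read, with a preference for U. miR-223-3p begins with U and miR-223-5p with C. Of the 25 hairpins with a sequence for both arms, 12 had U at the start of 1 arm only, and in 11 of these the U arm was the more abundant. miR-3068 was the exception. The pairing of the strand ends is another such feature, the strand with the less firmly paired 5′ end being favoured as a rule. In the fold of the whole miR-223 hairpin, 2 of the first 4 bases of the 5p strand were paired. Of the first 4 bases of the 3p strand, 4 were paired. Each strand had 2 G-C pairs among these bases. The fold holds the loop, with which such bases may pair. These counts thus do not show which end of the cut duplex was less firmly paired. The part of either feature in the arm ratio of miR-223 was not tested.

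The miR-142a hairpin, active in most blood cells, serves as a comparison. miR-142a-3p took 0.731% to 1.59% of counts in DMSO and 0.278% to 0.478% in 27HC libraries, and the groups did not overlap. On the log2 scale, miR-223-3p exceeded miR-142a-3p by 3.35 to 4.22 with DMSO (median 3.70) and by 4.5 to 5.35 with 27HC (median 5.06). The mean difference, 1.27, is a ratio 2.41 times as large with 27HC. Its exact permutation p was 0.000583 (adjusted 0.00350), the smallest that 7 against 7 allows. Replicates 1 to 4 gave 1.37 and replicates 5 to 7 gave 1.13, and the groups overlapped in neither set. The 27HC difference of miR-223-3p thus differed from that of miR-142a-3p. The rise in the ratio reflects the fall of miR-142a-3p, whose log2 fold change was −1.53 beside −0.26 for miR-223-3p. This reference was chosen with earlier results of these data known. The p of the ratio is therefore not separate support for a change in miR-223-3p.

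Against the most abundant name the direction was the other one. miR-16-5p took 38.8% ± 3.66 of counts in DMSO and 40.8% ± 1.34 in 27HC libraries (SD, n = 7). The log2 ratio of miR-223-3p to it went from −1.49 ± 0.223 to −1.80 ± 0.0655 (SD, n = 7), or by −0.31 (exact permutation p 0.00699, adjusted 0.0210), although the groups overlapped. Replicates 1 to 4 gave −0.47 (exact p 0.0286) and replicates 5 to 7 gave −0.094 (exact p 0.400). These effects differed by −0.38 (exact p 0.0155, adjusted 0.0388; exact p 0.0622 without both libraries numbered 7). Of the 7 same-numbered pairs of libraries, the ratio was lower with 27HC in 6.

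miR-423-5p, varied widely among the DMSO libraries, from 1.44% to 9.72% of counts. The log2 ratio of miR-223-3p to miR-423-5p was 1.84 ± 1.23 in DMSO and 1.33 ± 0.430 in 27HC libraries (SD, n = 7). The groups differed by −0.52, less than the DMSO spread (exact permutation p 0.314, adjusted 0.314). Replicates 1 to 4 gave −1.14 (exact p 0.0286), and replicates 5 to 7 gave 0.32 (exact p 0.600). The arm ratio of miR-423 itself overlapped between the groups in both sets.

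**Figure D5:**
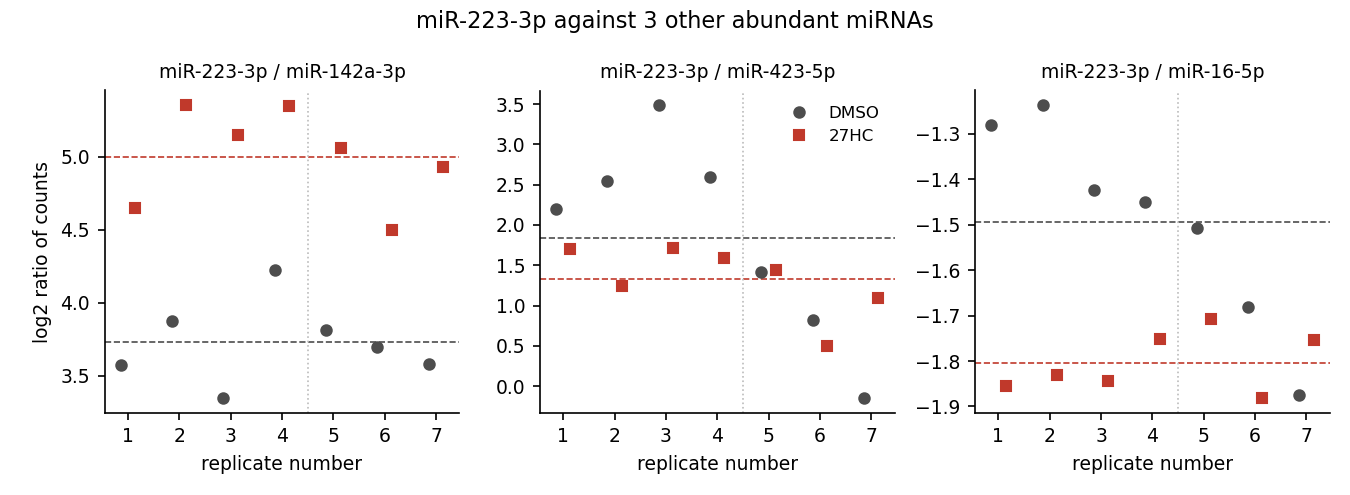
Log2 ratio of the counts of miR-223-3p to those of miR-142a-3p, miR-423-5p and miR-16-5p in each library, by replicate number, with group means as dashed lines. The groups are apart for miR-142a-3p in all 14 libraries, at most 4.22 with DMSO and at least 4.5 with 27HC, and for the other 2 names only in replicates 1 to 4.

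The spread between libraries was examined as well. The share of miR-223-3p had a coefficient of variation of 19.5% in DMSO and 4.58% in 27HC libraries, and that of miR-223-5p 17.3% and 5.87%. The mean absolute deviation of the miR-223-3p share from the median of its group was 1.90 percentage points in DMSO and 0.429 in 27HC libraries. That difference of −1.47 points had an exact permutation p of 0.112 (adjusted 0.135). Within replicates 1 to 4, around the medians of that set, the difference was −0.034 (exact permutation p 0.743). Replicates 5 to 7 gave −1.14, at an exact permutation p of 0.5. Without both libraries numbered 7 the difference was −0.67 (exact p 0.310), and without DMSO replicate 1, 2, 3 or 4 the exact p was 0.00175 or 0.00233.

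Other miRNAs known from myeloid cells did not move as one. Of 16 on the list, 14 were tested; 2 rose and 4 fell, beside 12.6% of all names called, and their median log2 fold change was −0.071. miR-142a-3p fell by 1.53 in log2 terms (edgeR adjusted p 3.55e-05, SE 0.20) and its partner miR-142a-5p fell by 0.74. miR-146a-5p, a brake on inflammatory signalling, fell by 0.82, from 17547 ± 1566 to 9952 ± 1203 CPM (SD, n = 7). miR-155-5p, which promotes inflammatory responses, fell by 1.48 (SE 0.40), on only 226 counts in all DMSO and 47 in all 27HC libraries. The 2 that rose were miR-132-3p at 1.74 and miR-27a-3p at 0.31. miR-21a-5p (−0.020), miR-23a-3p (−0.14), miR-24-3p (−0.045), miR-29a-3p (0.059) and miR-322-5p (−0.046) were not called. The 8 members not called ran from miR-146b-5p at −0.25 to miR-9-5p at 0.65, beside −0.26 and 0.17 for the miR-223 arms.

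The names whose levels were most like those of miR-223-3p over the 14 libraries, by Pearson's r of log2 CPM, were miR-26a-5p (r 0.94), miR-340-5p (0.90), miR-15b-5p (0.87), miR-338-3p (0.83) and miR-142a-5p (0.80). After each treatment and replicate set was centred, the same r values were 0.87, 0.65, 0.60, 0.57 and 0.46, each lower than before. The most like miR-223-5p were miR-1843b-5p (0.86), miR-27b-3p (0.65), miR-132-3p (0.63), miR-181c-3p (0.62) and miR-1843a-5p (0.60). After centring these were 0.81, 0.72, 0.61, 0.48 and 0.64, of which those of miR-27b-3p and miR-1843a-5p were higher than before. miR-1843b-5p, miR-132-3p, miR-181c-3p and miR-1843a-5p were low, with means of 84.6, 50.2, 40.4 and 125.7 CPM with DMSO. With 27HC their means were 113.9, 167, 60.3 and 134.7 CPM. The part of counting error in their r values was not tested. The lists of the arms had no name in common. The arms themselves were not alike over the 14 libraries, with r −0.048, and 0.39 after centring. All of these r values are descriptions of points that share libraries and scaling.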

How the data were processed

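Small RNA from vesicles was sequenced in 14 libraries made with the QIAseq miRNA kit, per the labels' protocols. The deposited values are raw counts, whole numbers per mature miRNA name and library. The submitters' processing notes name R 4.1.2, edgeR and limma, and the build GRCm39 (mm39), with no role; the aligner, the rule for reads with several matches and the use of molecular identifiers are not given in the sources used here, so a count may be a read or a molecule. Duplicate reads would not be covered by the intervals. Some names had the same values, such as miR-199a-3p and miR-199b-3p, each at a mean of 567.1 CPM with DMSO and 583.7 with 27HC. Library totals, on which the shares of counts rest, may thus hold a read under several names. miR-3473b and miR-3473e were nearly the same, at means of 5075 and 5021 CPM with DMSO and 26872 and 26839 with 27HC. Columns and rows left unmatched to the labels numbered 0. No 2 libraries of a group agreed within sampling noise (42 pairs, lowest chi-square per degree of freedom 5.58).

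Groups were compared on the deposited counts by edgeR 4.0.16 (quasi-likelihood, R 4.3.3, TMM, filterByExpr set to min.count 10, min.total.count 15), which left 239 names holding 99.4% of counts. Calls had an adjusted p under 0.05. On simulated counts for this comparison, 27 of 27 names changed 4-fold that passed the filter were called, with 2 unchanged names, among 231 tested. Shifts as small as those of the miR-223 arms (log2 −0.26 and 0.17) were not simulated, so how often such shifts would be called is not known. The 6 single values (arm ratio, hairpin share, 3 ratios to other names, spread) used exact two-sided permutation tests over 3432 splits, smallest p 0.000583, and a threshold of 0.05. The pseudocount was 0.5 for ratios and the prior count 2 for log2 CPM. Alternatives were other scalings, filters, DESeq2 1.42.0, limma-voom 3.58.1, a replicate block, each replicate set and each library left out; those without both libraries numbered 7, the tests between replicate sets and the arm ratios of all hairpins were added after seeing the data. Folding used ViennaRNA 2.7.2.

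Members, lists, named miRNAs (members, 3 reference loci, the 5 names most alike, the 2 names above and below each in abundance, a myeloid list) and tests were chosen with earlier results of these data known. Sequences are RefSeq's (GRCm38.p6) and coordinates belong to that build, not to the counts.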

Additional observations from a re-analysis of the deposited data

Results flagged for a closer look

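In 1 of 20 groups of libraries examined a single library stood far from the others of its group, and chance gives about 1 in 20. The rank of miR-223-5p was 52 in 27HC replicate 1, against 47 in the next library. 3 values showed a 27HC effect that differed between replicates 1 to 4 and 5 to 7 by an exact permutation of the set labels: the arm ratio (−0.80 on the log2 scale), the hairpin's share of counts (−4.33 percentage points) and the log2 ratio of miR-223-3p to miR-16-5p (−0.38). Each was negative in the first set, and the part of what the replicate numbers mark was not tested. The split came from earlier results of these data, so these flags are descriptions only.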

How the results depend on the processing

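The number of called names was 30; it was 42 in replicates 1 to 4 alone and 12 in replicates 5 to 7 alone, and with 1 library left out it was 21 to 34. The log2 fold change of miR-223-3p was −0.43 and called in replicates 1 to 4, 0.15 in replicates 5 to 7, and −0.33 to −0.12 with 1 library left out; it was not called in the other 12 settings. That of miR-223-5p was 0.11 to 0.27 with 1 library left out and was positive and not called in all 28 alternatives. The arm ratio differed by −0.72 in replicates 1 to 4, 0.084 in replicates 5 to 7, −0.53 without both libraries numbered 7, and −0.53 to −0.28 with 1 library left out, where only leaving out DMSO replicate 7 brought the exact p under 0.05. The share of the hairpin differed by 0.206 points in replicates 5 to 7, −2.27 with the replicate block (exact sign-flip p 0.0781), −3.25 as a percent of counts without miR-16-5p and −1.76 without miR-3473b and miR-3473e, all with an exact p above 0.05; with 1 library left out it was −3.13 to −1.91 and kept its exact p under 0.05 only without DMSO replicate 6 or 7. The ratio to miR-142a-3p differed by 1.13 in replicates 5 to 7, where no p under 0.1 is possible, and by 1.20 to 1.35 with 1 library left out. The ratio to miR-423-5p differed by −1.14 in replicates 1 to 4, 0.32 in replicates 5 to 7 and −0.85 to −0.24 with 1 library left out. The ratio to miR-16-5p differed by −0.094 in replicates 5 to 7 and −0.37 to −0.27 with 1 library left out. The spread differed by −2.89 points without miR-16-5p in the total (exact p 0.0227), −0.034 in replicates 1 to 4 (exact p 0.743), −1.14 in replicates 5 to 7 (exact p 0.5) and −1.78 to −0.67 with 1 library left out. The cause of these changes was not tested. With treatment labels permuted within each replicate set, the unadjusted exact p was 0.0257 for the share of the hairpin and 0.05 for the arm ratio. For the ratios to miR-142a-3p, miR-423-5p and miR-16-5p it was 0.00143, 0.161 and 0.00571. The sets came from earlier results of these data, so these p-values are descriptions.

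Same-numbered libraries shared deviations from their group means with r from 0.069 to 0.60, 1 of the 7 under 0.1. The median r with libraries of other numbers, which include those of the other replicate set, was negative for each, from −0.29 to −0.011. The r of the same number was above that median for each. The best 27HC match of a DMSO library had its number for replicates 1, 3 and 6, not for 2, 4, 5 and 7. The labels do not say that the numbers mark pairs, and the main tests did not treat them as pairs. With the replicate block 37 names were called, and miR-223-3p stood at −0.21 (edgeR adjusted p 0.415) and miR-223-5p at 0.17 (edgeR adjusted p 0.375). The lowest count of miR-223-5p in a library was 249 with DMSO and 233 with 27HC.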
